A study of Mus musculus with 6 samples.

Results

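Heat shock proteins and their DnaJ co-chaperones were followed in the caudal artery, the main artery of the tail, of mice with and without Notch3. The genes were chosen by name: every probe set whose only platform symbol began with Hspa, Hspb, Hspd, Hspe, Hsph, Dnaja, Dnajb or Dnajc and a number, or with Hsp90. The rule found 70 genes, measured by 169 probe sets, among 18193 genes and 45037 probe sets on the chip. Each gene was represented by its probe set with the highest mean over the 6 arrays. Of the 70 genes, 60 passed the level filter (26 Hsp genes of which 23 passed, and 44 DnaJ genes of which 37 passed). The 10 genes below the filter were Dnajb3, Dnajb7, Dnajb8, Dnajb13, Dnajc5b, Dnajc5g, Dnajc6, Hspa1l, Hspb3 and Hspb9, and they were not tested. Hsp90ab1 and Dnajc19 had no probe set carrying their symbol alone and were not analysed here.

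Arteries were taken at 4 weeks (P28) and pooled before RNA was prepared, so each array stands for a pool of mice. The Notch3+/+ group had 3 pools, of 4, 3 and 3 mice, and the Notch3-/- group had 3 pools of 4 mice each. The labels name no treatment and no Cre or promoter, and describe neither the strain nor how the Notch3-/- allele was made. A whole artery mixes smooth muscle, endothelium, adventitia and attached tissue. Fewer cells of a type and less RNA per cell therefore cannot be told apart in any value given here. Values are log2 expression values, so a difference of 1 is a 2-fold step.

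HSP70 proteins bind unfolded stretches of other proteins and release them in a cycle driven by ATP. DnaJ proteins bring the clients and switch on the ATPase, HSP110 proteins exchange the nucleotide, HSP90 takes over clients that are partly folded, and small heat shock proteins hold aggregating proteins without ATP. Many of these genes are switched on in heat or other protein stress by the factor HSF1, which binds inverted repeats of the letters GAA in their promoters. In arteries, small heat shock proteins are known for a part in smooth muscle tone, and Notch3 is a receptor made mainly by arterial smooth muscle.

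The promoters of the pair Hspa1a and Hspa1b are shown because these genes of the stress-inducible HSP70, side by side on chromosome 17 and with no other protein-coding gene between them, gave the smallest p-values of all 60 genes. Both are the 250 bases before the RefSeq start in build GRCm38.p6, minus strand, at chr17:34972157-34972406 for Hspa1a and chr17:34959239-34959488 for Hspa1b. Capitals mark the letters GAANNTTC, a pair of facing GAA units, which began 104 bases before the start in both.
Hspa1a: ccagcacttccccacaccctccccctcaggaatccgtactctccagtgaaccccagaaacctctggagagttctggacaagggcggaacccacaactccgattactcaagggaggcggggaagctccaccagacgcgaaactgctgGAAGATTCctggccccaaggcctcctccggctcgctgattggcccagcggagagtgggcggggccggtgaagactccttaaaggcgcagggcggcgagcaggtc
Hspa1b: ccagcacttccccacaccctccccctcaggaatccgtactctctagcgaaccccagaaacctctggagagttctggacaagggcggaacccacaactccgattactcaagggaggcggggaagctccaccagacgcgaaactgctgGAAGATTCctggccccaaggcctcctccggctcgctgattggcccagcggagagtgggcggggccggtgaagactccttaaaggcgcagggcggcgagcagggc
The stretches were identical at 247 of 250 bases (98.8%). Counted from 1 at the 5′ end, with the Hspa1a base first, they differed by C44T, T47C and T249G.

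The longer motif of 3 alternating units, GAANNTTCNNGAA, was searched on both strands from 250 bases before to 50 after each start, and every match to it also holds GAANNTTC. It was found in 0.603% of all 32851 promoter windows. By gene it was found in 0.662% of 27025 genes and in 4 of the 57 members with a window (7.02%): Hsph1, Hspd1, Hspe1 and Dnajb6. The shorter GAANNTTC was found in 9.04% of all genes and in 14 of the 57 members (24.6%). Hspd1 and Hspe1 share the same stretch, and the near-identical Hspa1a and Hspa1b are both among the 14. The genes of each such pair are therefore not independent in these counts. The matches of Hsph1, an HSP110, and of Hspe1, the lid of the mitochondrial chaperonin, are shown because genes carrying the longer motif can be set beside the Hspa1 pair. Each is a 30-base stretch with the motif in capitals. That of Hsph1 lies at chr5:149636279-149636308, minus strand. Its motif lies after the annotated start, at bases 16 to 28, or 37 to 49 from the other start of the gene. That of Hspe1 lies at chr1:55088053-55088082, plus strand, holds 2 overlapping matches, and is also within the window of the neighbouring Hspd1, which is read the other way.
Hsph1: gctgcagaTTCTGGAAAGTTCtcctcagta
Hspe1: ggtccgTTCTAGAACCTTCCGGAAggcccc
The genotype differences (Notch3-/- minus Notch3+/+) of the 4 tested genes with the longer motif ran from −0.05 for Dnajb6 to 0.42 for Hsph1, with a median of 0.05. The 44 tested genes with a window and no such match had a median of 0.10. A match is a string of letters and not a measured binding site.

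Array values correlated between 0.990 and 0.996 over all pairs of arrays. Pool 2 of Notch3-/- stood apart on the first principal component, at 43.5 against −19.2 to 6.63 for the other pools. Notch3 itself read 9.94, 9.95 and 10.09 in the Notch3+/+ pools and 6.51, 6.44 and 5.87 in the Notch3-/- pools, a difference of −3.72 (SE 0.17, limma adjusted p = 0.000529). The defining smooth muscle markers Acta2, Tagln and Myh11 were bright in every pool, between 11.80 and 13.25. Among all 12732 genes tested, 41 passed an adjusted p of 0.05 (0.322%).

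No heat shock or DnaJ gene passed an adjusted p of 0.05. At an unadjusted p under 0.05, 12 of the 60 were higher in Notch3-/- (20%, against 7.1% of all genes) and 1 was lower (against 4.81% of all genes). Together these 13 genes were 21.7% of the members, against 11.9% of all genes. The difference was above 0 in 41 members and below 0 in 17, with a median of 0.07, and above 0 in 48.6% of all genes, with a median of −0.0033. In 13 members every pool of one genotype lay above every pool of the other (21.7%, against 17.3% of all genes). Notch3-/- was the higher genotype in 12 of them (9.46% of all genes) and the lower in 1 (7.88% of all genes). At an unadjusted p under 0.05, Hsp genes had 8 higher and 1 lower of 23, with a median difference of 0.13. At the same threshold DnaJ genes had 4 higher and none lower of 37, with a median of 0.03. Pool 2 of Notch3-/- was the highest of the 6 pools for 30 of the 60 members (50%) and for 26.0% of all genes. Without that pool the count at an unadjusted p under 0.05 was 9, of which 7 were higher. The count fell to 7 without Notch3+/+ pool 2 and to 6 without Notch3+/+ pool 3. The shares of all genes were not counted with a pool left out, so these counts have no background beside them.

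**Figure D1:**
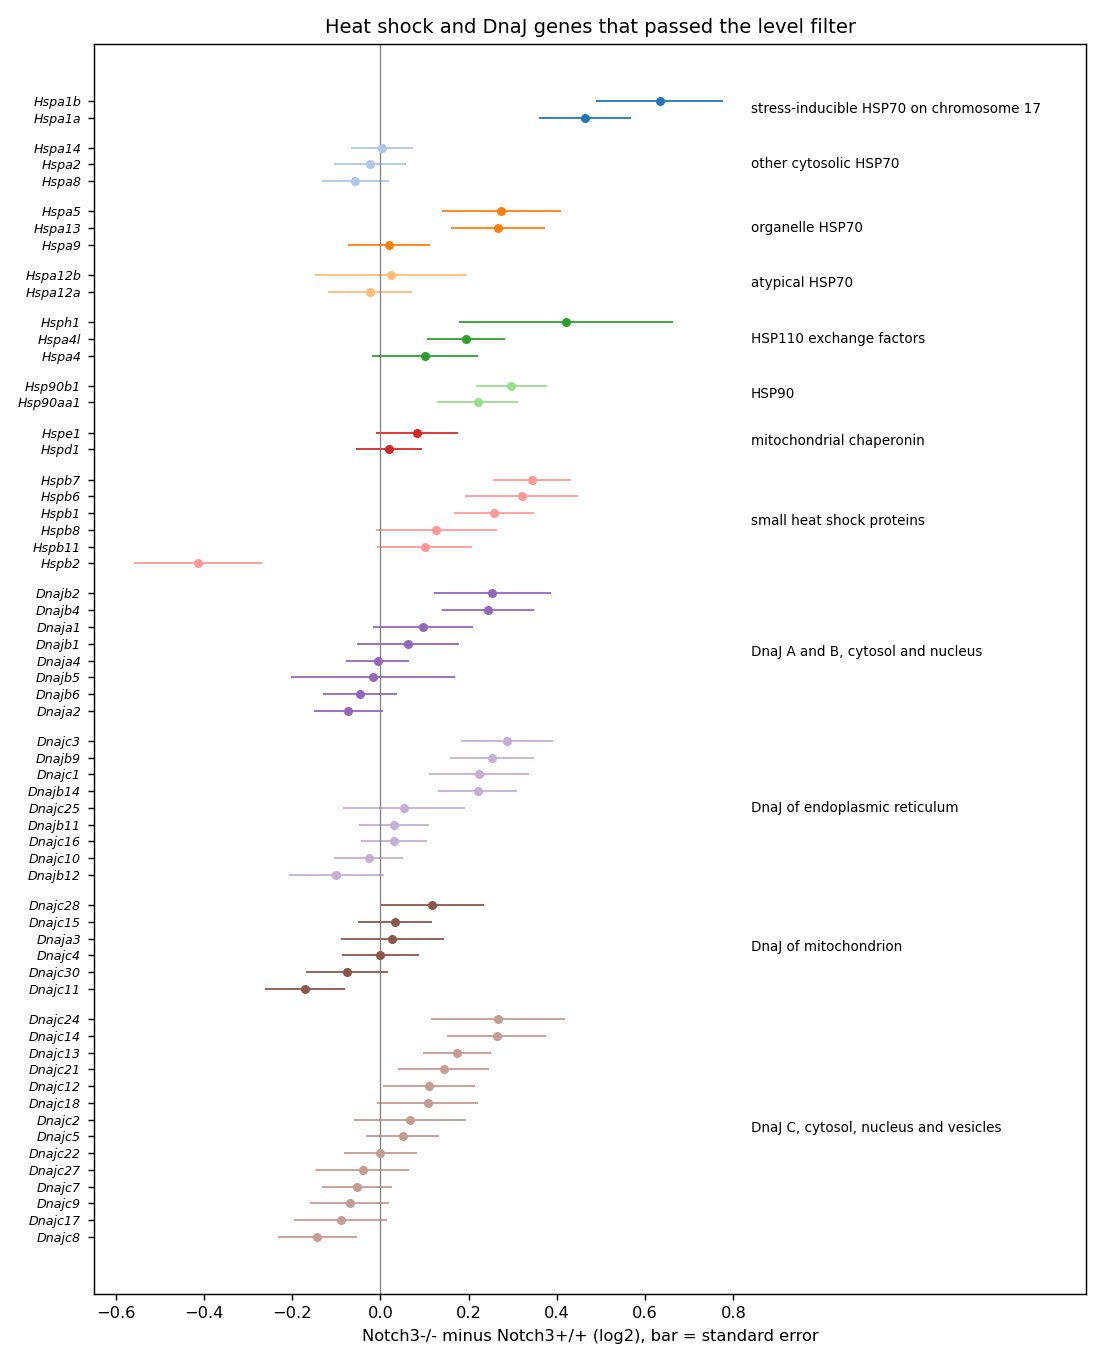
Difference between Notch3-/- and Notch3+/+ (log2, x axis) for the 60 heat shock and DnaJ genes that passed the level filter, grouped by role and ordered by difference within each group; points are differences of group means and bars are standard errors. Hspa1b and Hspa1a lie farthest to the right at 0.63 and 0.46, and Hspb2 lies farthest to the left at −0.41.

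Hspa1a and Hspa1b encode the HSP70 that is scarce in unstressed cells and made quickly in stress, and their proteins are nearly the same. Hspa1a read 7.12, 7.13 and 7.05 in the Notch3+/+ pools and 7.39, 7.75 and 7.55 in the Notch3-/- pools. Every Notch3-/- pool was above every Notch3+/+ pool, and the difference was 0.46 (SE 0.10), a 1.38-fold ratio, with an adjusted p of 0.1928. Hspa1b read 8.37, 8.01 and 7.97 in the Notch3+/+ pools and 8.53, 8.93 and 8.79 in the Notch3-/- pools. Its groups did not overlap either, although Notch3+/+ pool 1 came close to Notch3-/- pool 1. The Hspa1b difference was 0.63 (SE 0.14), a 1.55-fold ratio, with an adjusted p of 0.1943. The other Hspa1b probe sets differed by 0.57 (adjusted p = 0.2508) and 0.62 (adjusted p = 0.2684), in the same direction. Probe sets of such near-identical genes may read both transcripts, so the values of the pair are not independent of each other. Without Notch3-/- pool 2 the differences were 0.37 for Hspa1a and 0.54 for Hspa1b. Both passed only when limma estimated a weight for each array (adjusted p = 0.0211 for Hspa1a and 0.0171 for Hspa1b, against a range over the 16 alternatives that reached 0.578 and 0.593). Hspa1l, a testis-rich gene of the same cluster, was below the level filter, between 3.39 and 3.66 in all pools.

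Because the pair lies within 5 Mb of Notch3, it was set against 12 chaperone genes of the same families on other chromosomes. These were listed as inducible by stress, and the list includes Hspa8, the constitutive HSP70. Each gene was centred on its Notch3+/+ mean. The mean of the pair was 0.14, −0.04 and −0.10 in the Notch3+/+ pools and 0.35, 0.73 and 0.56 in the Notch3-/- pools. The median of the 12 genes was 0.09, −0.0017 and −0.06 in the Notch3+/+ pools and 0.07, 0.21 and 0.12 in the Notch3-/- pools. Notch3-/- pool 2 was highest and Notch3+/+ pool 3 lowest for the pair and for the 12 genes alike. The pair minus the 12 genes was 0.05, −0.04 and −0.04 in the Notch3+/+ pools (mean −0.0094 ± 0.05, SD, n = 3) and 0.29, 0.52 and 0.45 in the Notch3-/- pools (mean 0.42 ± 0.12, SD, n = 3). This gap of 0.43 between genotypes was larger than the spread between pools and was 0.38 without Notch3-/- pool 2. It was 0.375 without probe sets ending in _x_at, which changed the probe sets of Hspa1b and Hspa8. The gap is given as a description with no test.

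**Figure D2:**
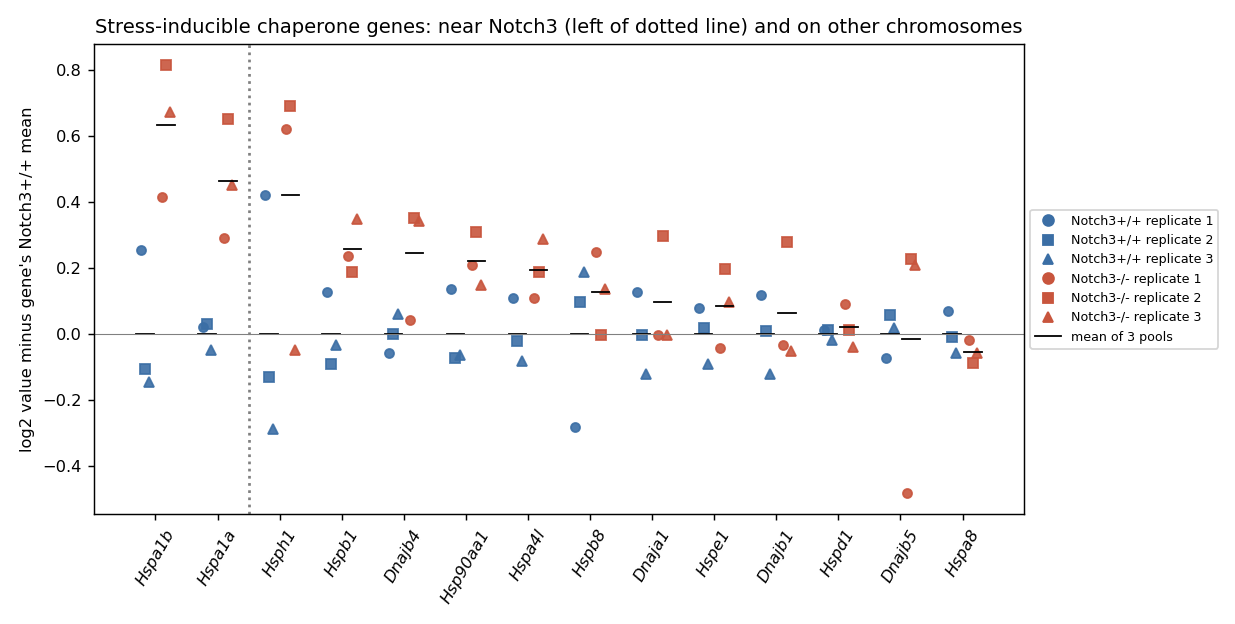
Values are shown for Hspa1b, Hspa1a and 12 chaperone genes on other chromosomes that were listed as stress-inducible. Each pool is given relative to the gene's Notch3+/+ mean (log2, y axis). Shapes mark replicate pools, colours the genotype and dashes the mean of 3 pools. The 3 Notch3-/- pools lie above all Notch3+/+ pools for Hspa1a and Hspa1b. Of the other 12 genes this holds for Hspb1 and Hsp90aa1 (16.7%, against 9.46% of all genes). In either direction, pools did not overlap for 17.3% of all genes.

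Of these 12 genes, 10 had a difference above 0 (83.3%, against 48.6% of all genes). At an unadjusted p under 0.05, 3 were higher (25%, against 7.1% of all genes). Dnajb4 was among these 3 at an unadjusted limma p of 0.04999. The differences of the 12 genes ran from −0.06 to 0.42 with a median of 0.11. Hsph1, an exchange factor for HSP70, read 7.17, 6.62 and 6.46 in the Notch3+/+ pools and 7.37, 7.44 and 6.70 in the Notch3-/- pools. The groups overlapped, because Notch3+/+ pool 1 was high and Notch3-/- pool 3 low, and the difference was 0.42 (SE 0.24, adjusted p = 0.5535). The other Hsph1 probe set differed by 0.11. Hspb1, a small heat shock protein that also binds actin, read 11.47, 11.25 and 11.31 against 11.58, 11.53 and 11.69. Its groups did not overlap, at a difference of 0.26 (SE 0.09, adjusted p = 0.3692). Hsp90aa1, the inducible cytosolic HSP90, read 9.90, 9.69 and 9.70 against 9.97, 10.07 and 9.91. Its Notch3-/- pools were all above the Notch3+/+ pools, one of them barely, at 0.22 (adjusted p = 0.432), and its other tested probe sets differed by 0.10 and 0.04.

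Dnajb4, a cytosolic partner of HSP70, read 9.03, 9.09 and 9.15 against 9.13, 9.44 and 9.43. Notch3-/- pool 1 lay among the Notch3+/+ values, and the difference was 0.24 (adjusted p = 0.440). Dnajb1, the main DnaJ partner of inducible HSP70 and itself a heat shock gene, read 7.78, 7.67 and 7.54 against 7.63, 7.94 and 7.61, with the groups mixed and a difference of 0.06. Dnaja1, another cytosolic partner, differed by 0.10 (adjusted p = 0.7605). A dimmer Dnaja1 probe set differed by 0.66 (adjusted p = 0.2801), so its probe sets did not give 1 size. Hspa8, the constitutive HSP70, read 11.29, 11.21 and 11.16 against 11.20, 11.13 and 11.16 and differed by −0.06. Its other tested probe sets differed by 0.17, 0.50 (adjusted p = 0.2398) and −0.08, so the direction of Hspa8 depended on the probe set.

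The remaining inducible genes elsewhere also lay below the adjusted threshold. Hspa4l, a second HSP110, differed by 0.19, with probe sets of both signs (−0.05 to 0.24). Hspb8, which works with the co-chaperone Bag3 in autophagy, differed by 0.13, also with probe sets of both signs (−0.07 to 0.15). Hspe1 differed by 0.08 and its partner Hspd1 by 0.02. Dnajb5 differed by −0.02, with Notch3-/- pool 1 at 6.71 and the other Notch3-/- pools at 7.42 and 7.40. Adjusted p-values of these 5 genes were 0.4738 or above.

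Genes induced within minutes of handling or dissection were listed as well, because the pair can respond to such stress. Of 19 immediate early genes tested, 2 were higher at an unadjusted p under 0.05, where 7.1% of all genes were higher. These 2 were the transcription factor genes Klf4 (0.54, adjusted p = 0.3278) and Klf6 (0.29, adjusted p = 0.3692). Fos read 7.40, 6.19 and 6.19 in the Notch3+/+ pools and 6.96, 7.32 and 8.10 in the Notch3-/- pools (0.87, adjusted p = 0.4655). Nr4a2 and Atf3 each differed by 0.36 and overlapped. The median of the 19 genes, each relative to its mean over 6 arrays, was 0.33, −0.21 and −0.23 in the Notch3+/+ pools and 0.13, −0.03 and 0.09 in the Notch3-/- pools. Within Notch3+/+ the immediate early genes and the pair had the same order, with pool 1 highest and pool 3 lowest. Over all 6 pools Notch3+/+ pool 1 was highest for the immediate early genes and Notch3-/- pool 2 for the pair. The part of handling in the Hspa1 values was not tested.

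**Figure D3:**
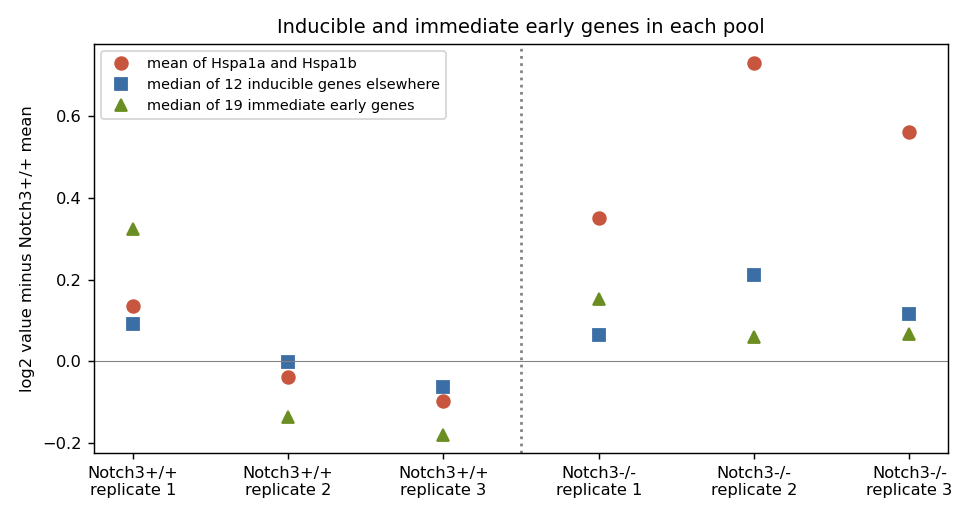
Mean of Hspa1a and Hspa1b, median of 12 inducible genes elsewhere and median of 19 immediate early genes in each pool (x axis), relative to the Notch3+/+ mean (log2, y axis). The pair reaches 0.35, 0.73 and 0.56 in the Notch3-/- pools, where the 12 genes elsewhere reach 0.07, 0.21 and 0.12.

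The region of chromosome 17 around Notch3 was then read gene by gene. Apart from Notch3, 202 tested genes lay within 5 Mb of it, and none of them passed an adjusted p of 0.05, while 16 (7.92%; 6 higher and 10 lower) had an unadjusted p under 0.05, against 12.0% of the genes elsewhere. Hspa1a and Hspa1b had the smallest p-values among the 202. The next were Cbs, an enzyme of cysteine synthesis (−0.35), Slc37a1, a sugar phosphate transporter (−0.37), Scube3, a secreted protein (0.29), and H2-Ea, a class II histocompatibility gene (−0.26). Among the 202, differences below 0 reached −0.48. Above 0, Pi16, also a fibroblast marker (0.58, adjusted p = 0.3411), and Cdkn1a, a cell cycle inhibitor (0.49, adjusted p = 0.4039), were larger than Hspa1a. H2-Aa, another class II gene, differed by 0.43 (adjusted p = 0.4903). These 3 were named after their values were seen. The pair was separated from Notch3 by 85 tested genes. The 20 tested genes closest to the pair, 10 on each side, differed by −0.29 to 0.19 with a median of −0.06, and 1 of them, Ly6g6e (−0.29), had an unadjusted p under 0.05. Within 20 Mb, 445 genes were tested, of which 3 passed an adjusted p of 0.05 and 51 (11.5%) an unadjusted p of 0.05, against 11.9% elsewhere. DNA of another strain around a targeted allele and loss of Notch3 cannot be told apart in this region.

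**Figure D4:**
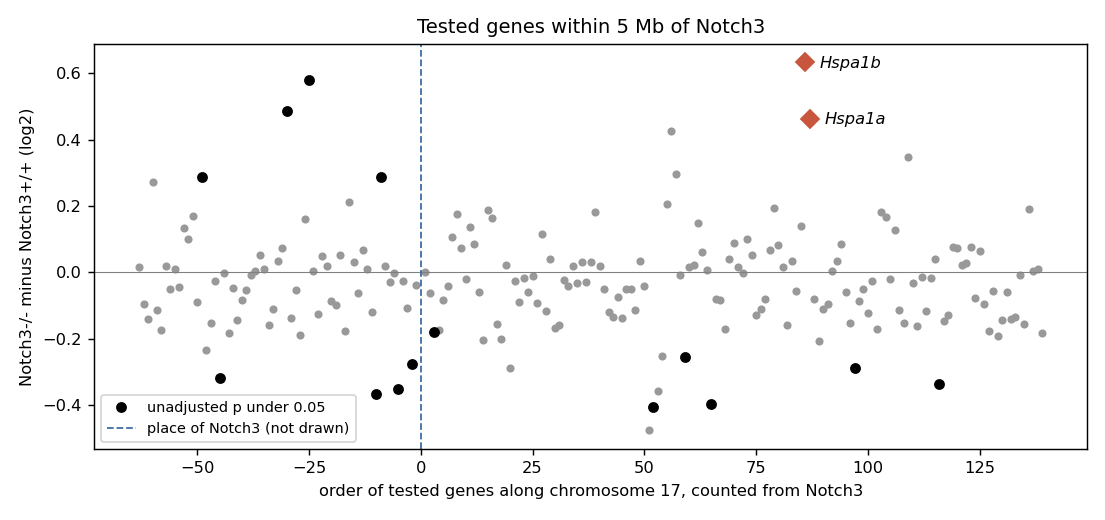
Difference between genotypes (log2, y axis) of the tested genes within 5 Mb of Notch3, in their order along chromosome 17 counted from Notch3 (x axis); black points have an unadjusted p under 0.05 and red diamonds are the Hspa1 pair. Hspa1b at 0.63 and Hspa1a at 0.46 lie above their nearest 20 tested genes, which run from −0.29 to 0.19, while Pi16 at 0.58 and Cdkn1a at 0.49, on the other side of Notch3, lie above Hspa1a.

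The other cytosolic HSP70 genes lay close to 0 on the probe sets that stood for them. Hspa2, known for its role in sperm development, differed by −0.02, and Hspa14, an HSP70 that works at the ribosome, by 0.0033, with pools between 7.17 and 7.21. The atypical HSP70 genes Hspa12a and Hspa12b differed by −0.02 and 0.02 and their groups overlapped. With Hspa8, none of these 5 genes had an adjusted p under 0.792 on the probe set that stood for it. On those probe sets they counted 0 higher and 0 lower at an unadjusted p under 0.05 (against 7.1% and 4.81% of all genes). Over all tested probe sets, Hspa14 ran from −0.04 to 0.16 and Hspa12a from −0.21 to −0.02. Hspa8 ran from −0.08 to 0.50, with 1 probe set at an unadjusted p under 0.05.

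Among HSP70 proteins of organelles, Hspa13, an HSP70 of microsomes, read 7.93, 7.97 and 7.75 against 8.05, 8.33 and 8.07. All Notch3-/- pools were higher, by 0.27 on average (SE 0.11, adjusted p = 0.4159). Its 3 other probe sets differed by 0.03, −0.09 and −0.13, so the direction of Hspa13 depended on the probe set. Hspa5, the endoplasmic reticulum chaperone BiP, read 10.36, 10.02 and 9.99 against 10.46, 10.54 and 10.19. Notch3+/+ pool 1 lay within the Notch3-/- range, and the difference was 0.27 (adjusted p = 0.4992). Other Hspa5 probe sets differed by 0.50 (adjusted p = 0.2615) and −0.05. Hspa9, the mitochondrial HSP70, differed by 0.02, and the one of its other probe sets with an unadjusted p under 0.05 by −0.29 (adjusted p = 0.2983).

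Hsp90b1, the HSP90 of the endoplasmic reticulum (also known as GRP94), read 9.20, 9.12 and 9.26 in the Notch3+/+ pools and 9.57, 9.47 and 9.43 in the Notch3-/- pools. The groups were well apart for this gene, at 0.30 (SE 0.08, adjusted p = 0.2581), and its second probe set differed by 0.16 (adjusted p = 0.7098). Hspa4, another HSP110, read between 8.38 and 8.49 in Notch3+/+ and between 8.32 and 8.77 in Notch3-/- and differed by 0.10.

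DnaJ genes of the endoplasmic reticulum had 3 higher and none lower of 9 at an unadjusted p under 0.05. The higher ones were 33.3%, against 7.1% of all genes, and the median difference of the 9 was 0.05. Dnajc3, which holds unfolded proteins and restrains the kinase PERK, read 7.92, 7.84 and 7.59 against 7.98, 8.11 and 8.12. Its groups did not overlap (0.29, adjusted p = 0.3835), while its 4 other tested probe sets ran from −0.09 to 0.17. Dnajb9, a target of the unfolded protein response that regulates its sensor IRE1, read 8.38, 8.19 and 8.07 against 8.44, 8.48 and 8.48. The Notch3-/- pools were close together and all higher (0.25, adjusted p = 0.395). Dnajb14, a DnaJ protein of the reticulum membrane, differed by 0.22 (adjusted p = 0.4189), and its other probe set by −0.11. Dnajc1, another membrane protein there, differed by 0.22 (adjusted p = 0.5111) and did not overlap between groups. Its 4 other tested probe sets differed by 0.21, 0.0033, −0.0033 and −0.08. Dnajb11, a cofactor of BiP, differed by 0.03 and Dnajc10, a disulfide reductase, by −0.03. Dnajb12, which serves membrane protein quality control, differed by −0.10.

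Other genes of folding in this compartment and of the unfolded protein response gave a similar range. Of 24 tested, 21 had a difference above 0 (87.5%, against 48.6% of all genes), with a median of 0.08. At an unadjusted p under 0.05, 2 were higher (8.33%, against 7.1% of all genes) and none was lower. These were Sec63, a DnaJ-domain protein of the protein channel (0.19, adjusted p = 0.3817), and Xbp1, the transcription factor activated by IRE1 (0.23, adjusted p = 0.4362). Manf and Creld2, secreted factors induced in this response, differed by 0.20 and 0.25 and overlapped. Secretory cells carry more of these transcripts, and fibroblast, macrophage and mast cell markers were higher in Notch3-/- as given further on. Their part in these values was not tested.

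The small heat shock proteins split in direction. Of 6 tested, 3 were higher and 1 lower at an unadjusted p under 0.05 (50% and 16.7%, against 7.1% and 4.81% of all genes). Hspb7, a small heat shock protein of heart and muscle, read 7.53, 7.62 and 7.41 in the Notch3+/+ pools and 7.86, 7.79 and 7.94 in the Notch3-/- pools. Its groups were apart (0.34, SE 0.09, adjusted p = 0.2399), and all of its 3 probe sets lay between 0.30 and 0.34. Hspb6, a target of cyclic nucleotide signalling in smooth muscle relaxation, read 8.36, 8.60 and 8.78 against 8.96, 9.01 and 8.73. Notch3-/- pool 3 was below the highest Notch3+/+ pool, and the difference was 0.32 (SE 0.13, adjusted p = 0.4159). Hspb1 is given above, and its second probe set differed by 0.32 (adjusted p = 0.372).

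Hspb2, which binds the myotonic dystrophy kinase, was the member with the lowest difference. It read 7.60, 7.61 and 7.78 in the Notch3+/+ pools and 7.45, 6.92 and 7.38 in the Notch3-/- pools. All Notch3-/- pools were lower, Notch3-/- pool 2 by far the most, and the difference was −0.41 (SE 0.15, adjusted p = 0.3687). Without that pool it was −0.25. Cryab, the lens and muscle small heat shock protein that sits next to Hspb2 on chromosome 9 with no protein-coding gene between them, was not a member by name. Cryab read 9.09, 9.01 and 9.08 against 9.20, 9.49 and 9.25, which is higher in all Notch3-/- pools (0.25, adjusted p = 0.4002). In Notch3-/- pool 2 Hspb2 was at its lowest and Cryab at its highest. Hspb11, a part of cilia transport that carries the family name, differed by 0.10 through Notch3-/- pool 2 alone, which read 7.10 where the others read 6.74 to 6.78. Skeletal muscle, which also makes Hspb2, Hspb6, Hspb7 and Cryab, left markers in all pools. Their median over 12 tested genes was 0.13, 0.31 and −0.08 in the Notch3+/+ pools and −0.24, −0.57 and 0.44 in the Notch3-/- pools, so Notch3-/- pool 2 was lowest, and their part in the Hspb2 value was not tested.

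**Figure D5:**
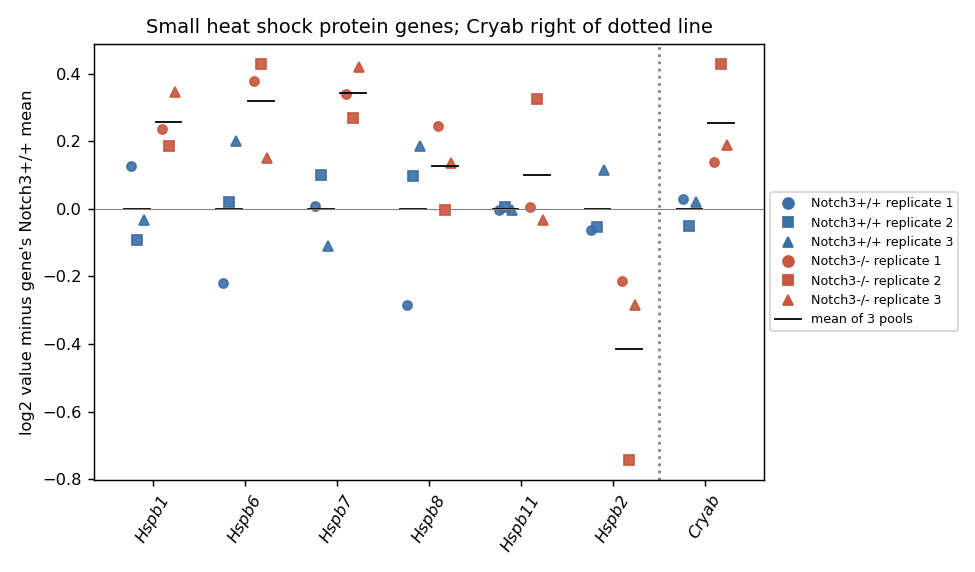
Value of each pool relative to the gene's Notch3+/+ mean (log2, y axis) for the 6 tested small heat shock protein genes and for Cryab, the neighbour of Hspb2; shapes mark replicate pools, colours the genotype and dashes the mean of 3 pools. The Hspb2 mean is −0.41 and the Cryab mean 0.25, with no overlap between genotypes for either.

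DnaJ genes of the A and B classes in cytosol and nucleus counted 1 higher (Dnajb4) and none lower of 8 at an unadjusted p under 0.05. This was 12.5%, against 7.1% of all genes, and rested on an unadjusted limma p of 0.04999 for Dnajb4. The median difference of the 8 was 0.03. Dnajb2, a DnaJ protein known from neurons, read 6.02, 5.83 and 5.70 against 6.34, 5.92 and 6.05 and differed by 0.25 with overlap (adjusted p = 0.5206). Dnaja2, a partner of constitutive HSP70, differed by −0.07, Dnaja4 by −0.0067 and Dnajb6, a suppressor of aggregation, by −0.05. The 6 DnaJ genes of the mitochondrion had none at an unadjusted p under 0.05 (against 11.9% of all genes) and a median of 0.01. Dnajc11, of the inner membrane folds, differed by −0.17, Dnajc28 by 0.12, Dnajc30 by −0.08 and Dnajc15, of protein import, by 0.03.

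The 14 tested DnaJ genes of the C class in cytosol, nucleus and vesicles also had none at an unadjusted p under 0.05 (against 11.9% of all genes). Their median was 0.06. Dnajc13, an endosomal protein, read 7.46, 7.42 and 7.36 against 7.53, 7.66 and 7.57 (0.17, adjusted p = 0.462). It was the only gene of this group without overlap (7.14%, against 17.3% of all genes). Its other probe set differed by −0.03. Dnajc14, an export factor for receptors, differed by 0.26 (adjusted p = 0.440) and overlapped, and its probe sets ran from −0.08 to 0.26. Dnajc24, of diphthamide synthesis, differed by 0.27 (adjusted p = 0.5487) and Dnajc8, of splicing, by −0.14 (adjusted p = 0.580). The other 10 lay between −0.09 and 0.14.

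Of the 40 members with several tested probe sets, 21 had probe sets of both signs and 19 had not. Over all 140 tested probe sets of the members, 21 had an unadjusted p under 0.05 (15.0%, against 11.4% of all probe sets). None passed an adjusted p of 0.05, and the smallest was 0.1928.

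Partners of these chaperones outside the 70 genes were counted in the same way. Heat shock genes outside the name rule counted 2 higher of 9 (22.2%, against 7.1% of all genes) and none lower, with a median of 0.05. The 2 were Cryab, a small heat shock protein, and Cacybp at 0.21. In this list Hmox1 differed by 0.24, Chordc1 by 0.10 and Bag3 by −0.03, all with adjusted p-values of 0.6908 or above. Of the heat shock factors and their regulator, Hsbp1 was tested (−0.11), while Hsf2, Hsf4, Hsf5 and Hsf2bp were below the level filter. Hsf1, the gene of HSF1, had no probe set carrying its symbol alone and was not analysed here. Co-chaperones of HSP70 and HSP90 counted 0 higher and 2 lower of 30 (6.67% lower, against 4.81% of all genes), with a median of −0.02. The 2 lower genes were Tomm34 (−0.25, adjusted p = 0.2927) and the phosphatase gene Ppp5c (−0.30, adjusted p = 0.3442). Bag2, an exchange factor, differed by 0.21. The cytosolic chaperonin CCT with prefoldin counted 2 higher of 14 (14.3%, against 7.1% of all genes) and none lower, with a median of 0.05. These were Cct4 (0.30, adjusted p = 0.3662) and Cct6a (0.21, adjusted p = 0.4383). Pfdn2 differed by −0.36 and Cct3 by 0.15.

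Markers of other cells moved alongside these differences. All 12 macrophage and leukocyte markers were above 0, 6 of them at an unadjusted p under 0.05 (50%, against 7.1% of all genes). Their median difference was 0.47, with the example of Laptm5 at 0.66. Their median by pool was 0.09, −0.11 and −0.72 in the Notch3+/+ pools and 0.45, 0.08 and 0.26 in the Notch3-/- pools. All 7 mast cell markers were above 0, 4 of them at an unadjusted p under 0.05 (57.1%, against 7.1% of all genes). Their median difference was 0.76. By pool they ran 0.28, −0.48 and −0.88 against 0.70, 0.12 and 0.35. For both lists, as for the Hspa1 pair, pool 1 was the highest of the Notch3+/+ pools and pool 3 the lowest of all 6. Within Notch3-/- the order was not the same: pool 1 was highest for both marker lists and pool 2 for the pair.

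Of 9 fibroblast markers 7 were above 0 and 4 were higher at an unadjusted p under 0.05, with a median of 0.15, among them Dpt, a matrix protein, at 0.58 (adjusted p = 0.0499, a call that 10 alternatives lost). The 8 smooth muscle markers had a median of −0.0083, with Cnn1 at 0.51, Myocd at −0.39 and Smtn at −0.58. Of 10 endothelial markers 8 were below 0 and 4 were lower at an unadjusted p under 0.05, with a median of −0.25 and the example of Nos3 at −0.47. Below 0 were 11 of 12 skeletal muscle markers (3 at an unadjusted p under 0.05, median −0.24), 5 of 6 Schwann cell markers (3 at that threshold, median −0.12) and 3 of 6 adipocyte markers (1 at that threshold, median 0.02). Of all genes, 7.1% were higher and 4.81% lower at an unadjusted p under 0.05. The part of these cell types in the chaperone values was not tested.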

How the data were processed

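Total RNA from pooled caudal arteries was hybridised to Affymetrix MOE430 2.0 arrays, 1 per pool, per the labels. The deposited log2 values were made by the authors with RMA, per the submitters' processing notes; its version and settings are not named there. Such values share a scale between arrays and carry no counts, so the number of arrays limits the precision. Of 45101 probe sets, 64 controls were left out. Platform annotation gave 1 symbol for 34945 probe sets, several for 932 and none for 9160. Probe sets with a mean below the 40th percentile (3.83) were not tested, which left 27027.

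Genotype was fitted with limma 3.58.1 in R 4.3.3 (lmFit and eBayes, two-sided), with Benjamini-Hochberg adjustment over all tested probe sets; the fit was checked on simulated data. One probe set stood for each gene. An unadjusted p under 0.05 is a count beside the background and not a call. The labels call the pools biological replicates.

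The members and gene lists were chosen with earlier results of these data known. Named were Notch3, the Hspa1 pair, the inducible members elsewhere, the 4 smallest p-values and the highest mean in each role group, up to 4 smallest p-values in each companion list and up to 6 within 5 Mb of Notch3, and members whose probe sets disagreed in sign or size. Hspb11, Hspa4, Hspa5, Dnajb11, Dnajb12, Dnaja4, Hmox1, Chordc1 and Bag3 complete their groups. Members were searched for RefSeq promoters (GRCm38.p6); 57 of 70 had one. Replicate numbers were not taken as a pairing in the main fit. Other filters, scalings, weights, the replicate block, probe set rules and leaving out each pool were tried.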

Additional observations from a re-analysis of the deposited data

How the results depend on the processing

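No member passed an adjusted p of 0.05 in the fits without estimated array weights. With array weights (2.94 for Notch3+/+ pool 2, 3.04 for Notch3-/- pool 3, 0.290 to 0.841 for the others) 978 probe sets passed in place of 68, and 4 members passed: Hspa1a (0.43), Hspa1b (0.70), Hspb1 (0.36) and Hspb7 (0.35). Leaving out 1 pool gave 13 to 62 probe sets (13 without Notch3+/+ pool 2, 17 without Notch3-/- pool 3, 23 without Notch3+/+ pool 3, 37 without Notch3-/- pool 2). Hspa1a was then 0.37 to 0.55 and Hspa1b 0.54 to 0.76, and the pair minus the inducible genes elsewhere 0.38 to 0.49, and with the other settings also 0.38 or above, at 0.48 with array weights. Members with an unadjusted p under 0.05 numbered 8 after quantile normalization in place of 13, and 6 to 13 with 1 pool left out. The share of all genes at that threshold was not counted under these settings. Near Notch3 the 16 genes became 25 with no level filter, 33 with array weights, 27 within 10 Mb and 8 to 22 with 1 pool left out. With each genotype mean removed, same-numbered pools correlated at 0.24, 0.05 and −0.07 over probe sets. Differently numbered pools correlated between −0.17 and 0.14. These values cannot show whether same-numbered pools were handled together, which was not tested. The replicate block gave 57 probe sets, 0 members at an adjusted p of 0.05 and 14 at an unadjusted p under 0.05, adjusted p of 0.2045 for Hspa1a and 0.2519 for Hspa1b, 0.43 for the contrast of the pair and 15 genes near Notch3. Dpt lost its call in 10 alternatives. The median difference over all probe sets lay between −0.02 and 0.02 under every setting.

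Among the 60 tested members, 29 turned sign in at least 1 alternative, as did Acta2, Cct4, Chordc1, Hsbp1 and Myh11 among the other genes given here; none of these was past the threshold, and the cause was not tested. The sign turned with array weights for Chordc1 (−0.063), Dnaja3 (−0.098), Dnajb1 (−0.027), Dnajb12 (0.030), Dnajb5 (0.075), Dnajc12 (−0.025), Dnajc15 (−0.011), Hspa12a (0.0052), Hspa12b (−0.14), Hspa14 (−0.011), Hspb11 (−0.0038) and Hspd1 (−0.021). The sign turned with median centring for Dnaja4 (0.023), Dnajb5 (0.013), Dnajc10 (0.0033), Hspa12a (0.0067) and Hspa2 (0.0067). The sign turned with quantile normalization for Hspa14 (−0.014), Hspa9 (−0.0006) and Hspd1 (−0.0089). The sign turned with the mean of probe sets for Acta2 (−0.092), Dnaja2 (0.024), Dnaja3 (−0.078), Dnaja4 (0.033), Dnajc18 (−0.0067), Dnajc5 (−0.059), Hspa8 (0.14) and Hspa9 (−0.086). The sign turned without probe sets ending in _x_at for Cct4 (−0.033) and Hspa8 (0.50). Leaving out 1 pool turned the sign of 26 genes, with ranges of −0.0033 to 0.16 for Dnaja1, −0.095 to 0.10 for Dnaja3, −0.022 to 0.013 for Dnaja4, −0.043 to 0.12 for Dnajb1, −0.010 to 0.075 for Dnajb11, −0.14 to 0.22 for Dnajb5, −0.095 to 0.0050 for Dnajb6, −0.070 to 0.020 for Dnajc10, −0.032 to 0.068 for Dnajc15, −0.0083 to 0.057 for Dnajc16, −0.14 to 0.017 for Dnajc17, −0.0033 to 0.20 for Dnajc18, −0.063 to 0.17 for Dnajc2, −0.078 to 0.16 for Dnajc25, −0.13 to 0.020 for Dnajc27, −0.17 to 0.010 for Hsbp1, −0.078 to 0.045 for Hspa12a, −0.12 to 0.21 for Hspa12b, −0.0067 to 0.010 for Hspa14, −0.062 to 0.023 for Hspa2, −0.022 to 0.20 for Hspa4, −0.038 to 0.10 for Hspa9, −0.013 to 0.17 for Hspb11, −0.015 to 0.22 for Hspb8, −0.015 to 0.050 for Hspd1 and −0.063 to 0.14 for Myh11. Leaving out Notch3+/+ pool 1 did so for Dnajc10, Dnajc18, Dnajc25, Hspa12a, Hspa14, Hspb8 and Myh11. Leaving out Notch3+/+ pool 2 did so for Dnajb5, Dnajb6, Dnajc16 and Hspa12b. Leaving out Notch3+/+ pool 3 did so for Dnaja3 and Dnajc27. Leaving out Notch3-/- pool 1 did so for Dnaja4, Dnajb11, Dnajb5, Hspa12b and Hspd1. Leaving out Notch3-/- pool 2 did so for Dnaja1, Dnaja3, Dnajb1, Dnajc15, Dnajc17, Dnajc2, Dnajc27, Hsbp1, Hspa12a, Hspa12b, Hspa14, Hspa2, Hspa4, Hspa9 and Hspb11. Leaving out Notch3-/- pool 3 did so for Dnajc25 and Hspa9.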
